A study of Mus musculus with 9 samples.

Results

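The small leucine-rich proteoglycans (SLRPs) were examined in mouse preosteoblasts after low-intensity pulsed ultrasound (LIPUS). The family members were taken by gene symbol from the annotation of the array, which gave 22 probe sets of 10 genes out of 45037 compared probe sets and 18193 genes. *Lum* (lumican), *Fmod* (fibromodulin), *Omd* (osteomodulin) and *Prelp* form class II, *Dcn* (decorin), *Bgn* (biglycan) and *Aspn* (asporin) form class I, with the related *Ecm2* placed beside them, *Ogn* (osteoglycin) stands for class III and *Podn* (podocan) for class V. Of these genes, 7 had more than 1 probe set, and every probe set was kept.

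MC3T3-E1 is an established line of fibroblast-like preosteoblasts from the calvaria of newborn C57BL/6 mice. The cells had grown for 14 days in MEMα with 10% fetal bovine serum, 0.3 mM ascorbic acid and 10 mM β-glycerophosphate, and all groups share that history. They were then trypsinized, seeded again and, after 24 h, given a single LIPUS exposure of 30 mW/cm2 for 20 min through the dish, and RNA was taken 6 h or 24 h later. Mock-treated cells were the control, and 3 whole-genome Affymetrix mouse arrays were run per group, 9 in all. The labels give no culture time for the control, so that the effect of LIPUS and that of further time in culture cannot be told apart. All arrays are of 1 cell line, and the labels do not say whether equally numbered arrays came from separate cultures, so p-values measure only the spread between these samples. In RNA from whole cultures, fewer cells of a type and less RNA per cell cannot be told apart.

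SLRPs are secreted proteins whose core is built of leucine-rich repeats, and many carry chains of chondroitin, dermatan or keratan sulfate. They bind collagen fibrils and regulate their width and spacing, and several also bind growth factors of the TGF-β family. In bone, biglycan and decorin are abundant in the matrix that osteoblasts lay down, and osteomodulin, also called osteoadherin, is known as a keratan sulfate proteoglycan of mineralizing tissue. The classes are defined by the spacing of cysteines at the amino-terminal end of the core and by exon structure, and the genes lie in small clusters on the chromosomes.

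In the RefSeq gene table, of assembly GRCm38.p6, *Ecm2*, *Aspn*, *Omd* and *Ogn* follow each other on chromosome 13 with 0 other listed genes between neighbours. *Dcn* and *Lum* are neighbours on chromosome 10, also with 0 listed genes between them, and *Prelp* and *Fmod* lie on chromosome 1 with 2 listed genes between them, of which 0 are protein-coding. *Bgn* lies on chromosome X and *Podn* on chromosome 4. The RefSeq promoter table held entries for 8 of the 10 genes, all but *Lum* and *Dcn*. The 200 bases before the start of the 4 genes on chromosome 13 are shown because these neighbours hold 3 of the genes that rose. They lie at chr13:49504610-49504809 (*Ecm2*), chr13:49544243-49544442 (*Aspn*), chr13:49582262-49582461 (*Omd*) and chr13:49607815-49608014 (*Ogn*), all on the plus strand of GRCm38.p6, and are written 5′ to 3′ with each E-box (CANNTG, the core bound by basic helix-loop-helix factors) in capitals:
Ecm2: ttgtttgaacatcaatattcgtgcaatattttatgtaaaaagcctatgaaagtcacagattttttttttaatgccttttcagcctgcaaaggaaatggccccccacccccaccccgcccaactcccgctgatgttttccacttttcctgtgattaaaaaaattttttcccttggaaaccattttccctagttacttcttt
Aspn: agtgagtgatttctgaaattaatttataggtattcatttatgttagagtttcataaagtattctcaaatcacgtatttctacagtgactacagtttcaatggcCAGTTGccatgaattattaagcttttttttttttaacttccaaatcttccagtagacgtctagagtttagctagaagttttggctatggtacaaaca
Omd: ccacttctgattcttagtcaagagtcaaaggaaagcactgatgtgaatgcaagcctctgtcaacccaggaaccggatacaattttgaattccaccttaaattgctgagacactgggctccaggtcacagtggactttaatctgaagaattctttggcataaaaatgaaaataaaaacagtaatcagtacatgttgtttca
Ogn: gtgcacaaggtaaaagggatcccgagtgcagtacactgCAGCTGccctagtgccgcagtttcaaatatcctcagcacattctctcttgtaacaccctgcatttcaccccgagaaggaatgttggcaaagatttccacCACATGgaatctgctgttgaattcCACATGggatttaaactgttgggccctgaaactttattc

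In these windows an E-box occurred once upstream of *Aspn*, at -97 from the start, at -162, -63 and -39 upstream of *Ogn*, and not upstream of *Omd* or *Ecm2*. Across the family 6 of 9 promoters held an E-box on either strand, beside 58.2% of the 32851 promoters of the table. The core of the Runx site, TGTGGT, was in 1 member promoter, that of *Ogn*, where it overlaps the E-box at -63, and in 11.2% of all. The sequence TATAAA was found upstream of *Aspn*, at -178 on the strand opposite to the gene (9.96% of all promoters). CCAAT was found upstream of *Prelp* (29.3%), and TGANTCA in 0 of 9 (5.48% of all). GGGCGG was in 3 promoters, those of *Podn*, *Ecm2* and *Bgn* (31% of all). Each motif was searched on both strands. The windows of *Ecm2*, *Aspn*, *Omd* and *Ogn* had a GC content of 38.5%, 31.0%, 39.0% and 47.0%, below the median of 53.0% over all promoters, and that of *Bgn* had 67.0%. The window of *Omd* held 0 of the motifs searched, so it could share none with *Aspn* or any other gene.

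The values are RMA signals (robust multi-array averages) on the log2 scale, and levels of different probe sets are not compared between genes. The median of an array was 4.89 to 5.15 and its highest signal 14.13 to 14.31. Of 10 osteoblast markers 7 were measured, all but *Runx2*, *Bglap* and *Spp1*, and 6 of them lay above the median of all probe sets. The collagen genes *Col1a1* and *Col1a2* read 12.70 and 14.20 in the control, whereas *Alpl*, alkaline phosphatase, read 5.02 and *Ibsp*, bone sialoprotein, only 3.25. The summed linear signal of the osteoblast markers was 22514 to 27748 in the control and 22841 to 28341 at 24 h. Nearly all of it came from *Col1a2* and *Col1a1*, so the sum says little of the other markers. By limma 1 osteoblast marker, *Dmp1*, was higher at 24 h. Markers of other cells were also read. The sum of 5 keratinocyte genes was 1074 to 1337 in the control and 732 to 927 at 24 h. By limma 1 of them was higher and 2 were lower. The sum of 7 chondrocyte genes was 1584 to 2105 in the control and 1092 to 1569 at 24 h. By limma 1 of these was lower, *Col2a1*, whose signal makes up much of that sum. The sums of the adipocyte, myoblast, macrophage and endothelial genes overlapped between the groups, with 1 macrophage gene, *Lyz2*, higher by limma, and *Adipoq*, *Ptprc* and *Pecam1* read 2.89, 2.86 and 3.28 in the control, under the median of every array. The part of these shifts in the results on SLRPs was not tested.

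At 24 h after LIPUS, 6 of the 10 SLRP genes were higher than in the control, 1 was slightly lower and 3 did not pass the test. On the main probe sets the largest rises were those of *Omd* and *Lum*, followed by *Aspn* and *Ogn*, and *Fmod* and *Prelp* rose by smaller amounts. *Dcn*, the best known member of the family, stayed within a narrow interval around 0, and *Bgn* fell slightly. By limma, with the experiment (the replicate number of the array) as a block and Benjamini-Hochberg adjustment over all probe sets, 10 of the 22 probe sets, or 45.5%, were higher at an adjusted p under 0.05, whereas 1.8% of all probe sets were. A single SLRP probe set was lower, beside 0.933% of all. The median log2 fold change over the 22 probe sets was 0.22, and over the 10 genes, with 1 probe set each, it was 0.26, whereas the median over all genes was 0.00. These shares and medians are descriptions, since the members were chosen with earlier results of these data known. Of the 22 probe sets 6 belong to *Fmod* alone. Most of the 22 also had signals above the array median, and the part of signal level in the shares was not tested. Without experiment 1, 0 of the 22 probe sets passed, as did 0 of all 45037, although the change of *Lum* was still 0.67. Without experiment 2, *Lum*, *Omd* and 1 probe set of *Ogn* passed, 3 of the 49 on the whole array. Without the block 0 SLRP probe sets and 1 of all passed, and with the 6 h arrays left out of the fit 0 and 5 did, beside 1229 of all in the fit reported, so that the losses extend over the whole array.

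**Figure D1:**
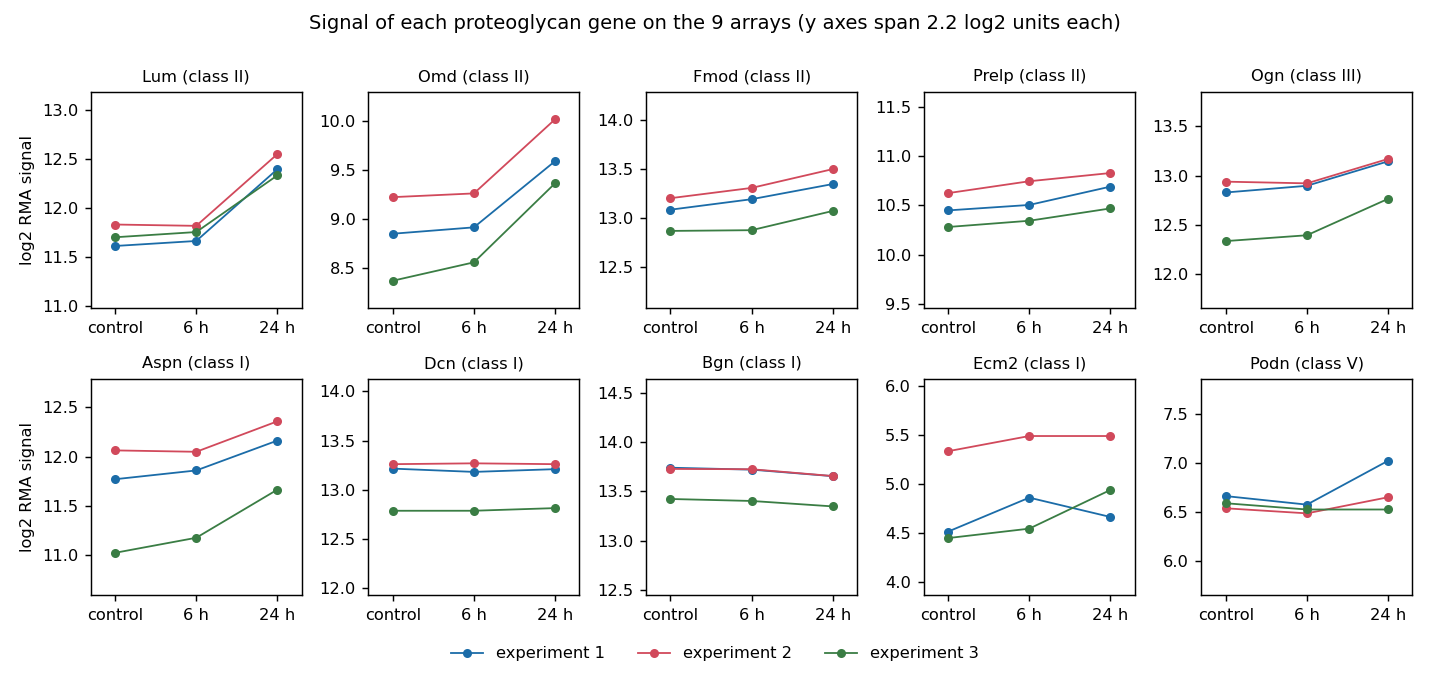
Log2 RMA signal of each SLRP gene (main probe set) on the 9 arrays, by group on the x axis, with 1 line per experiment and no error bars. The lines of *Lum* and *Omd* climb between 6 h and 24 h in all 3 experiments, whereas those of *Dcn* and *Bgn* stay almost level.

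Class II held the strongest rises. *Lum* encodes lumican, a keratan sulfate proteoglycan that regulates the assembly of collagen fibrils in cornea, skin and bone. The control signals of *Lum* (1423607_at) were 11.61, 11.83 and 11.70 in experiments 1, 2 and 3. At 6 h they were 11.66, 11.82 and 11.75, and at 24 h they were 12.39, 12.55 and 12.33. All arrays at 24 h lay above all others, and the arrays at 6 h lay among the controls. The log2 ratio of 24 h to control was 0.71 ± 0.08 (SD, n = 3 experiments), a fold of 1.64, with a limma adjusted p of 0.000374. *Lum* exceeded the 1.5-fold rule of the study in every experiment and was chosen by the study for its rise on these same arrays, as was *Omd*. The study also measured both genes by real-time quantitative PCR and reported them as significantly upregulated.

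*Omd* encodes osteomodulin, which binds collagen and hydroxyapatite in bone. Its probe set (1418745_at) read 8.85, 9.22 and 8.37 in the control, 8.91, 9.26 and 8.56 at 6 h, and 9.59, 10.01 and 9.36 at 24 h. The lowest array at 24 h exceeded the highest control, although the experiments differed among themselves by more than for *Lum*. The log2 ratio was 0.84 ± 0.13 (SD, n = 3), a fold of 1.79, with a limma adjusted p of 0.000697. A ratio of at least 1.5 in every experiment was met by *Lum* and *Omd*, 2 of the 22 probe sets, beside 0.0955% of all probe sets.

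*Fmod* encodes fibromodulin, which binds type I collagen and directs its crosslinking. The probe set with the highest signal (1456084_x_at) read 13.09, 13.20 and 12.87 in the control, 13.19, 13.31 and 12.88 at 6 h, and 13.35, 13.50 and 13.07 at 24 h. Although the groups overlapped because the experiments differed in level, the ratio was positive in each experiment, at 0.26, 0.30 and 0.20. The log2 fold change was 0.25 with an SE of 0.02 and a limma adjusted p of 0.00384. All 6 probe sets of *Fmod* had a positive mean change, from 0.14 to 0.27, and 3 of them passed. The only one without the suffix _x_at, which marks probes that may bind other transcripts, was 1415939_at. It went from 11.01, 11.28 and 11.16 to 11.35, 11.56 and 11.34, without overlap, by 0.27 (limma adjusted p of 0.0133). The weakest, 1438966_x_at, had ratios of 0.23, 0.16 and 0.03 and a limma adjusted p of 0.227, so the probe sets of this gene differ in size and call, but not in the sign of the mean.

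*Prelp* encodes a proline- and arginine-rich SLRP that binds heparan sulfate and collagen. The signals of 1416321_s_at were 10.45, 10.63 and 10.28 in the control, 10.50, 10.75 and 10.34 at 6 h, and 10.69, 10.83 and 10.47 at 24 h. The ratios of 0.24, 0.20 and 0.19 were alike, and the rise of 0.21 had an SE of 0.03 and a limma adjusted p of 0.00988. The second probe set, 1416322_at, rose by 0.25 (limma adjusted p of 0.035).

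*Ogn* encodes osteoglycin, also called mimecan, a class III member found in bone matrix. Its 2 probe sets both rose, but by different amounts. On 1419663_at, the brighter one, the signal was 12.83, 12.94 and 12.33 in the control, 12.90, 12.92 and 12.39 at 6 h, and 13.15, 13.17 and 12.76 at 24 h, a change of 0.33 with an SE of 0.04 (limma adjusted p of 0.00627). On 1419662_at it was 11.80, 12.09 and 11.73, then 11.96, 12.23 and 11.76, and at 24 h 12.40, 12.58 and 12.31, a change of 0.56 with an SE of 0.04 (limma adjusted p of 0.000997). The dimmer probe set showed no overlap between 24 h and control, and whether the brighter one is limited by its position near the top of the scale was not tested.

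Class I was mixed. *Aspn* encodes asporin, which binds collagen and TGF-β and has a stretch of aspartic acid in place of a glycosaminoglycan chain. The signals of 1416652_at were 11.77, 12.06 and 11.02 in the control, 11.86, 12.05 and 11.17 at 6 h, and 12.16, 12.36 and 11.66 at 24 h. Experiment 3 had the lowest level and the largest ratio, 0.64, beside 0.39 and 0.30. The change was 0.44 with an SE of 0.06 (limma adjusted p of 0.0124), whereas the second probe set, 1448421_s_at, had ratios of -0.02, 0.10 and 0.40 and did not pass (limma adjusted p of 0.591). The rise of *Aspn* thus rests on 1 of its 2 probe sets.

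*Dcn* encodes decorin, a dermatan or chondroitin sulfate proteoglycan that binds collagen and TGF-β. The main probe set (1449368_at) read 13.21, 13.26 and 12.78 in the control, 13.18, 13.27 and 12.78 at 6 h, and 13.21, 13.26 and 12.81 at 24 h. The change at 24 h was 0.01, with a 95% confidence interval of -0.03 to 0.05 and a limma adjusted p of 0.881. The interval does not reach the change measured for *Lum*. The signals of this probe set lay near the highest of the arrays, and the part of that position in the ratio was not tested. The other probe set of *Dcn*, 1441506_at, lay near the median of the array and gave 0.02 (limma adjusted p of 0.888). *Dcn* and *Lum* are chromosomal neighbours, and the ratio of *Lum* exceeded that of *Dcn* by 0.79, 0.72 and 0.60 in the 3 experiments.

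*Bgn* encodes biglycan, which carries chondroitin or dermatan sulfate and is needed for normal bone mass. Its main probe set (1416405_at) read 13.74, 13.73 and 13.42 in the control, 13.72, 13.73 and 13.40 at 6 h, and 13.66, 13.66 and 13.35 at 24 h. The decrease was small and alike in the 3 experiments, at -0.09, -0.07 and -0.08, a fold of 0.947, with a limma adjusted p of 0.0334. The other probe sets, 1448323_a_at and 1437889_x_at, gave -0.05 and -0.04 with limma adjusted p-values of 0.627 and 0.634, and the decrease in these came from experiment 3 alone. Only 1 of 3 probe sets therefore passed for *Bgn*, at a signal close to the highest of the arrays. It did not pass when any 1 experiment was left out. The limma adjusted p-values were 0.238, 0.435 and 0.129 without experiments 1, 2 and 3.

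Neither of the remaining genes passed. *Ecm2*, an extracellular matrix gene with decorin-type repeats, read 4.51, 5.33 and 4.45 in the control, 4.86, 5.49 and 4.54 at 6 h, and 4.66, 5.49 and 4.94 at 24 h (1440096_at). These signals are near the median of the arrays, and the change of 0.26 had a 95% confidence interval of 0.01 to 0.52 and a limma adjusted p of 0.375. Its second probe set, 1431324_at, gave -0.16, opposite in sign, and did not pass. *Podn* encodes podocan, known from the kidney and from smooth muscle. It read 6.66, 6.54 and 6.59 in the control, 6.58, 6.49 and 6.53 at 6 h, and 7.02, 6.65 and 6.53 at 24 h. The change was 0.14 with a 95% confidence interval of -0.07 to 0.34 (limma adjusted p of 0.598), and only the array of experiment 1 at 24 h lay above all controls.

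**Figure D2:**
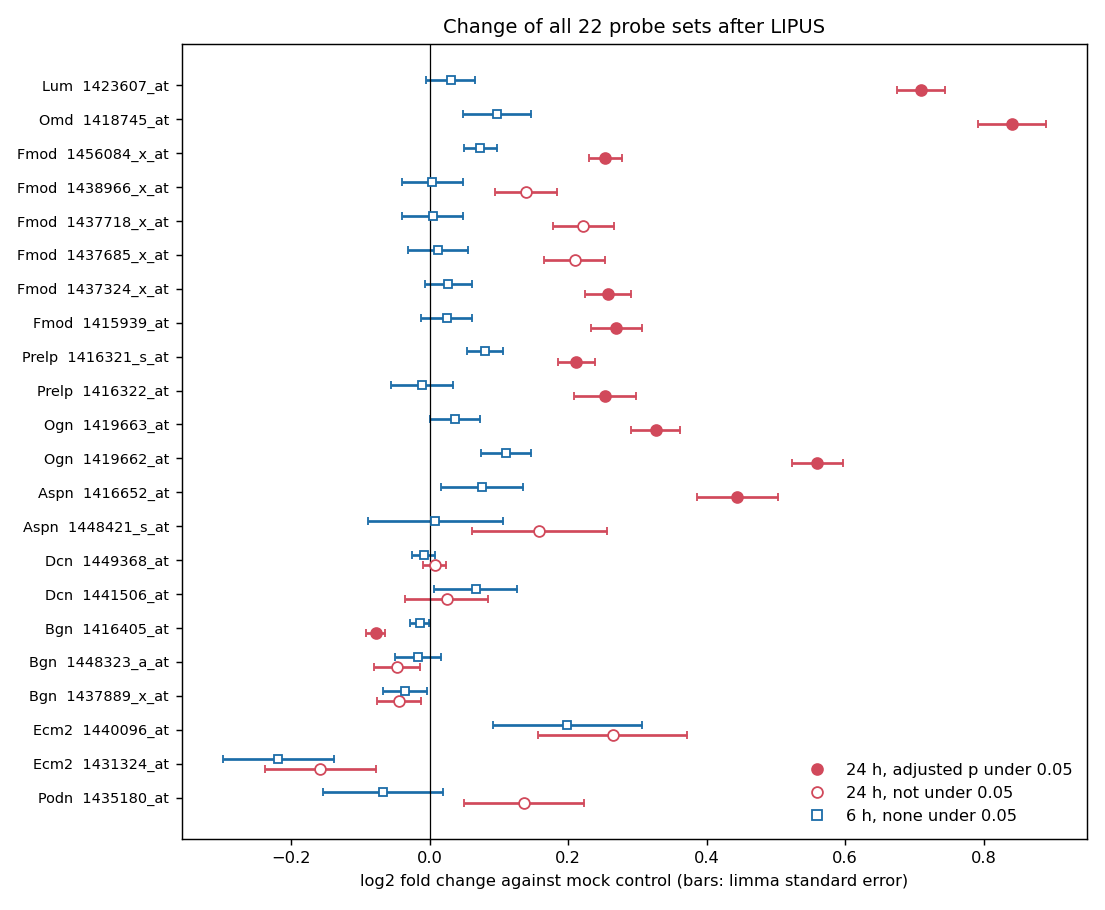
Log2 fold change of all 22 probe sets at 24 h (circles, filled where the limma adjusted p was under 0.05) and 6 h (squares) against the mock control, with bars for the limma standard error. The 10 filled circles on the right belong to *Lum*, *Omd*, *Fmod*, *Prelp*, *Ogn* and *Aspn*, the only filled circle left of 0 to *Bgn*, and the changes at 6 h lie from -0.22 to 0.20.

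The classes were set side by side as the mean of the log2 ratios of their genes in each experiment, with the main probe set of each gene. At 24 h the 4 genes of class II averaged 0.51, 0.50 and 0.50 in experiments 1, 2 and 3, a mean of 0.50. The 4 class I genes averaged 0.11, 0.09 and 0.27, or 0.16 ± 0.10 (SD, n = 3), and 0.12 ± 0.07 without *Ecm2*. The difference, class II minus class I, was 0.39, 0.41 and 0.23, and its mean was 0.34 ± 0.10. Class II was thus higher in each experiment, but the difference was not tested, since an exact sign-flip permutation test on 3 pairs cannot give a two-sided p below 0.25. It rests largely on *Lum* and *Omd*, which the study chose for their rise on these same arrays. In experiments 1, 2 and 3 the ratios were 0.26, 0.30 and 0.20 for *Fmod* and 0.24, 0.20 and 0.19 for *Prelp*. Both genes lay above the class I mean in experiments 1 and 2 and below it in experiment 3. The near equality of the class II means hides spread within the class, from 0.21 for *Prelp* to 0.84 for *Omd*, and class I ran from -0.08 for *Bgn* to 0.44 for *Aspn*, so that the ranges of the classes overlap. *Ogn* of class III had 0.33 ± 0.10 and *Podn* of class V had 0.14 ± 0.21. At 6 h the means of classes I and II were 0.06 and 0.07, and their difference was 0.01 ± 0.03.

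Seen by position, the 4 neighbours on chromosome 13, whose promoters are printed above, all had positive mean changes on their main probe sets, at 0.26 for *Ecm2*, 0.44 for *Aspn*, 0.84 for *Omd* and 0.33 for *Ogn*, and the last 3 passed the test. On these main probe sets experiment 3 had the largest ratio in each gene. The second probe set of *Aspn* also had its largest ratio there, at 0.40. By contrast, *Ogn* 1419662_at was highest in experiment 1, with 0.60, 0.50 and 0.58, and *Ecm2* 1431324_at was lowest in experiment 3, at -0.30. *Omd* exceeded its neighbour *Aspn* by 0.40 ± 0.09 and *Ogn* lay below *Omd* by -0.52 ± 0.08 (log2 difference, SD, n = 3). On chromosome 10 the neighbours differed, with 0.71 for *Lum* and 0.01 for *Dcn*. On chromosome 1, *Prelp* and *Fmod* had similar changes of 0.21 and 0.25.

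**Figure D3:**
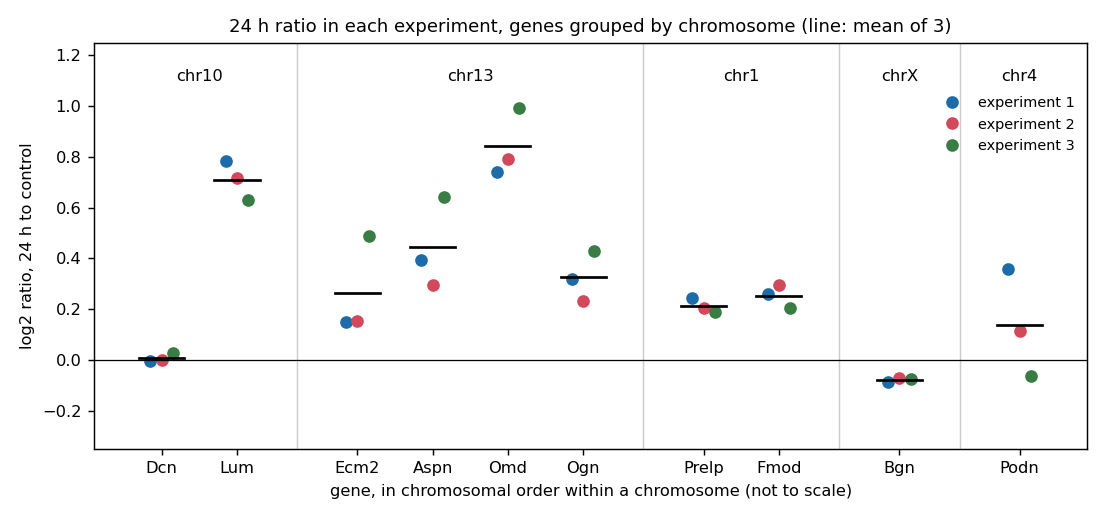
Log2 ratio of 24 h to control for the main probe set of each gene, grouped by chromosome and in chromosomal order, with a point per experiment and a line at the mean of 3. *Lum* and its neighbour *Dcn* are well apart, whereas every point of the 4 genes on chromosome 13 lies above 0.

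At 6 h, 0 of the 22 probe sets passed, as did 0% of all 45037, and the smallest limma adjusted p among the SLRPs was 0.959. At an unadjusted limma p under 0.05 there were 4 of 22, with 3 higher (the main probe sets of *Fmod* and *Prelp* and 1419662_at of *Ogn*) and 1 lower (1431324_at of *Ecm2*), beside 3.50% of all probe sets. The change of *Lum* at 6 h was 0.03 with a 95% confidence interval of -0.05 to 0.11, and that of *Omd* was 0.10 with an interval of -0.02 to 0.21. The intervals at 6 h therefore exclude rises of the size seen at 24 h for both genes. The comparisons at 6 h and 24 h share the control arrays, and for this reason the time points were also compared directly. At 24 h against 6 h, 9 of the 22 probe sets were higher, beside 1.14% of all, and 0 were lower, beside 0.879%. They belong to *Lum*, *Omd*, *Fmod*, *Prelp*, *Ogn* and *Aspn*. *Lum* was higher by 0.68 (limma adjusted p of 0.000519) and *Omd* by 0.74 (0.00127). For *Bgn* the difference of -0.06 did not pass (limma adjusted p of 0.083).

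Other genes that act with SLRPs were read in 6 lists, with 1 probe set per gene. Counted in this way, 2.57% of all 18193 genes were higher at 24 h and 1.57% were lower. Of the wider family 6 genes were measured and 0 passed at 24 h, with a median change of -0.01. They were *Epyc* (0.22), *Chadl* (0.09), *Kera* (0.04), *Optc* (-0.06), *Chad* (-0.07) and *Nyx* (-0.08), genes known mainly from cartilage and eye. *Kera*, the class II gene of keratocan, read only 2.96 in the control.

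Of 28 genes for the synthesis of glycosaminoglycan chains, 2 were higher and 1 lower at 24 h, and the median change was 0.02. The sulfotransferase genes *Chst1* and *Chst2* both act on keratan sulfate or related chains, and they moved in opposite directions. *Chst1* went from 9.57, 9.55 and 9.23 to 9.04, 9.16 and 8.78 (-0.46, limma adjusted p of 0.00294), and *Chst2* went from 5.84, 6.25 and 5.67 to 6.40, 6.66 and 6.20 (0.50, limma adjusted p of 0.0148). *Chst15*, which adds a further sulfate to chondroitin sulfate, rose by 0.37 (limma adjusted p of 0.00488).

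Of 14 collagen genes whose products SLRPs bind or lie beside, 1 was higher and 1 lower. Of all 29 probe sets of these genes, 3 were higher, in 2 genes, beside 1.8% of all probe sets. Another 1 was lower, beside 0.933%. *Col11a1* rose by 0.42 (limma adjusted p of 0.0321) and *Col2a1*, the collagen of cartilage, fell from 10.09, 10.21 and 9.88 to 9.26, 9.42 and 9.04 (-0.82, limma adjusted p of 9e-05). The type I collagen genes of bone, *Col1a1* and *Col1a2*, had changes of 0.07 and -0.00 and did not pass.

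Of 14 genes of ligands and receptors 1 passed, *Tgfb2*, a growth factor bound by several SLRPs, which rose by 0.29 (limma adjusted p of 0.00626). Of all 37 probe sets of this list, 3 were higher, in 2 genes, and 0 were lower, beside 1.8% and 0.933% of all probe sets. Of 13 genes of proteases that cleave SLRPs, with *Pcolce*, 5 were higher, beside 2.57% of all genes, and 0 lower, beside 1.57%. Of their 25 probe sets, 10 were higher, in 6 genes, and 0 were lower, beside the same shares of all probe sets. *Mmp13*, collagenase 3, read 7.50, 7.54 and 6.75 in the control and 8.65, 8.78 and 8.36 at 24 h, a rise of 1.34 (limma adjusted p of 0.000908). *Htra1*, a serine protease, rose by 0.95 (limma adjusted p of 0.000238), *Mmp9* by 0.47 and *Adamts5* by 0.28, and *Mmp2* by 0.21. The study chose *Mmp13* and *Htra1* for their rise on these arrays, and it reported *Htra1* as significantly upregulated by real-time quantitative PCR as well. Of 24 other proteoglycan genes, *Sdc2* (syndecan 2) rose by 0.18 and *Cspg4* (NG2) fell by 0.43, and 22 did not pass. Of all 55 probe sets of these proteoglycan genes, 3 were higher, beside 1.8% of all probe sets, and 3 were lower, beside 0.933%. They belong to 3 genes and to 2 genes. Without experiment 1, or without the block, 0 genes of the 6 lists passed. At 6 h, 0 genes of the 6 lists passed.

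**Figure D4:**
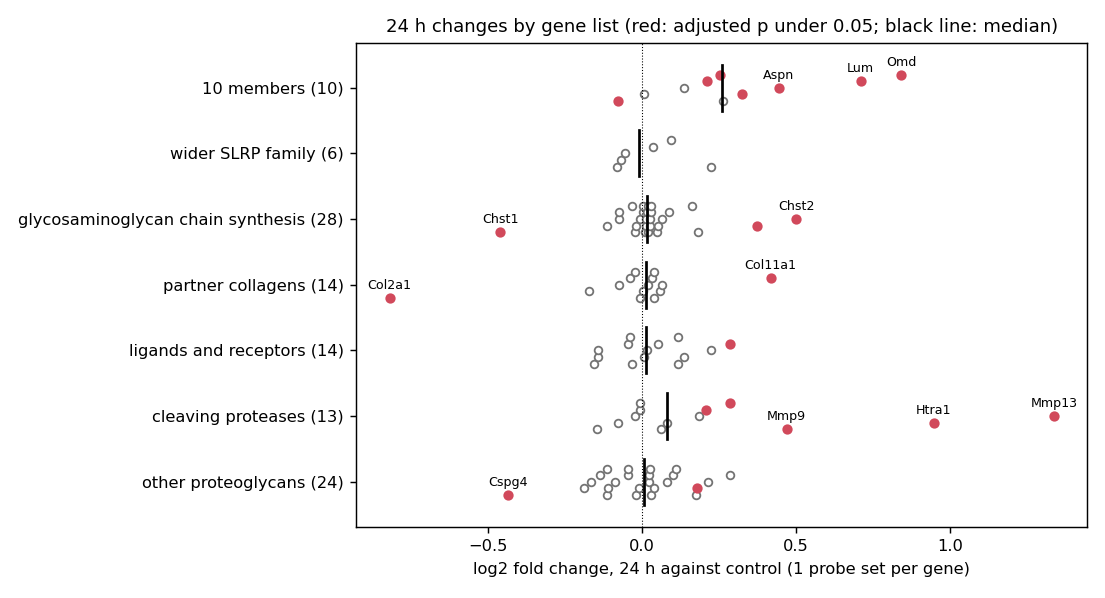
Log2 fold change at 24 h against control, 1 probe set per gene, for the 10 SLRP genes and the 6 lists, with a black line at each median and red points for a limma adjusted p under 0.05. The median of the SLRP genes is 0.26 and those of the lists lie from -0.01 to 0.08, with *Mmp13* and *Htra1* far to the right among the proteases.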

How the data were processed

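Labelled cRNA made from total RNA of MC3T3-E1 cells was hybridized to 9 arrays. The authors deposited log2 signals made with RMA. The version and settings are not given in the sources used here. The values were not transformed further. The 64 control probe sets of 45101 were left out. Gene symbols were those of the array annotation, and 0 needed updating through gene identifiers. Probe sets with several symbols (932) or none (9160) were tested and not named. The main probe set of a gene is that of the highest mean over the arrays.

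Limma 3.58.1 in R 4.3.3 (lmFit, eBayes with an intensity trend) was fitted to all 9 arrays with the replicate number as a block, leaving 4 residual and 3.00 prior degrees of freedom. P-values were adjusted by Benjamini-Hochberg over 45037 probe sets, at 0.05. Arrays were paired because the study counted ratios within each of 3 experiments. The deviations of equally numbered arrays from their group means correlated at 0.70 to 0.93 (9 pairs), and those of unequal number at -0.67 to 0.01 (18 pairs). Centring each group on its own mean pushes unequal numbers toward negative values, so these say nothing of the pairing. The array median also went with the number, and was 5.15 on each array numbered 2. The part of processing in the correlation of equal numbers was not tested, so it does not establish the pairing. The precision is limited by 3 arrays per group.

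The named genes are all members, the measured wider family, up to 4 called genes of each list by size (for an empty list up to 2), and the 5 genes nearest to *Lum*. *Mmp2*, *Kera* at its level, type I collagen and the markers are named beside these. The members and lists were chosen with earlier results of these data known. The procedure was tested on simulated data with independent normal noise of the fitted spread and the block built in. Such data meet the assumptions of the fit, so the test does not show how it behaves where these arrays depart from them. Promoters are from RefSeq, GRCm38.p6. Alternatives covered the block, trend, arrays, normalization, filter, weights, test, rule and each replicate.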

Additional observations from a re-analysis of the deposited data

Results flagged for a closer look

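The change from control differed between 24 h and 6 h, by the limma contrast of 24 h against 6 h, for 9 SLRP probe sets. The log2 differences were 0.74 for *Omd* 1418745_at, 0.68 for *Lum* 1423607_at, 0.45 for *Ogn* 1419662_at and 0.29 for *Ogn* 1419663_at. For *Aspn* 1416652_at the difference was 0.37, and for *Prelp* 1416322_at it was 0.26. The *Fmod* probe sets 1415939_at, 1437324_x_at and 1456084_x_at differed by 0.24, 0.23 and 0.18. The limma adjusted p-values ran from 0.000519 for *Lum* to 0.0356 for *Prelp*, and all 9 were positive.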

How the results depend on the processing

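Of the 22 SLRP probe sets, 11 passed limma at 24 h against control and 9 at 24 h against 6 h. With no replicate block the counts were 0 and 0, and with only the arrays of the 2 groups compared they were also 0 and 0. Without the intensity trend they were 6 and 3. With array weights they were 14 and 16, while the counts over all probe sets went from 1229 and 909 to 9276 and 5482. The methods' t-test gave 2 and 2 unadjusted and 0 and 0 after Benjamini-Hochberg adjustment, and the rule of 1.5 in every experiment gave 2 and 1. Leaving out each replicate in turn gave 0 to 12 at 24 h against control and 0 to 11 at 24 h against 6 h, lowest without replicate 1 and highest without replicate 3. Quantile normalization kept 11 and 9, the upper 60% of probe sets gave 13 and 11, and at 6 h 0 passed in each setting. The change of *Lum* stayed between 0.67 and 0.75 and that of *Omd* between 0.77 and 0.89, and no sign of a called value turned. The class difference stayed between 0.31 and 0.42, also with a choice made after the data were seen, of probe sets without a suffix. *Lum* and *Omd* were kept in class II in each of these settings. In the lists at 24 h, the called genes for glycosaminoglycan synthesis went from 3 to 0 without the block, 0 with only 2 groups and 0 to 3 by replicate left out. Partner collagens went from 2 to 0, 0 and 0 to 1, ligands and receptors from 1 to 0, 0 and 0 to 1, proteases from 5 to 0, 1 and 0 to 5, and other proteoglycans from 2 to 0, 0 and 0 to 5. The causes were not tested.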

Other observations

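Genes outside the family with the 6 paired log2 ratios nearest to those of *Lum* were *C1s1*, *Nrep*, *Gbp6*, *Cmbl* and *Matn4*, at root mean square differences of 0.05 to 0.07 over 6 ratios (3 experiments, 6 h and 24 h). *C1s1* encodes a complement protease and rose by 0.66 at 24 h. *Matn4* encodes matrilin 4, a matrix adaptor protein, and read 8.82, 8.97 and 8.61 in the control and 9.56, 9.69 and 9.30 at 24 h. Among the SLRP genes *Omd* was nearest to *Lum*, at 0.16, and *Aspn* was next at 0.24. The likeness was computed on the same arrays on which these genes rose, and it is given as a description.

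Of the 66 ratios of the SLRP probe sets at 24 h, 6 were exactly 0 on the log2 scale. They belong to *Dcn*, *Bgn* and *Ecm2*, and include that of the main *Dcn* probe set (1449368_at) in experiment 2. The share over all probe sets was not counted. The part of such ties in the narrow interval of *Dcn* was not tested.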
